A study of Mus musculus with 2 samples.

Results

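The enzymes that turn arachidonic acid into prostaglandins and leukotrienes were followed in immune cells of the mouse heart 24 h after myocardial ischemia-reperfusion. The 10 genes chosen by name were Ptgs1, Ptgs2, Ptges, Hpgds, Hpgd, Alox5, Alox5ap, Lta4h, Ltc4s and Alox15, and all 10 were found among the 32285 features of both deposited matrices. Both libraries came from male wild-type C57BL/6J mice, 8 weeks old, whose left anterior descending artery was closed for 60 min before reperfusion. One library was from mice whose spleen had been removed and the other from mice with a sham operation, so every animal carried the heart injury and no uninjured heart was compared. CD45+ cells were taken from the heart with magnetic beads and sequenced with the 3′ Chromium v3 chemistry.

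There was 1 library per group, and the labels do not give the number of mice in each. The groups could therefore not be tested against each other: levels are counts of UMIs (unique molecules) of a gene per 1000000 UMIs of a cell group (CPM), and ratios carry a 95% Poisson interval that covers counting error only. A ratio was called higher or lower when it reached 1.5-fold and the larger of the 2 counts was at least 20. The sham library held 5838 cells after filtering with a median of 4988 UMIs, and the splenectomy library 4805 cells with a median of 7219. Ptprc, the gene of CD45, was detected in 79.7% and 79.4% of them, and small endothelial-like and cardiomyocyte-like clusters were present. The libraries shared 9 barcode sequences, of which 8 were kept in both. The cells formed 22 clusters, named from markers that include none of the 10 genes. They comprised 2269 sham and 1590 splenectomy neutrophil-like cells, 442 and 580 monocyte-like cells, and 1318 and 1128 macrophage-like cells, besides smaller classes and 1074 and 890 cells in clusters without a name.

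Prostaglandins begin with the cyclooxygenases. Ptgs1 encodes the largely constitutive COX-1 and Ptgs2 the inducible COX-2, and both make prostaglandin H2, which Ptges converts to prostaglandin E2 and Hpgds to prostaglandin D2. Hpgd, 15-hydroxyprostaglandin dehydrogenase, inactivates prostaglandins. Leukotrienes begin with 5-lipoxygenase, the product of Alox5, which works with its partner protein FLAP, the product of Alox5ap. Lta4h then makes leukotriene B4, a neutrophil attractant, and Ltc4s makes leukotriene C4, the first cysteinyl leukotriene. Alox15 encodes 12/15-lipoxygenase, known from resident macrophages of the peritoneal cavity and from eosinophils.

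Of the 10 genes, 8 had an entry among the RefSeq promoter windows of build GRCm38.p6. The bases upstream of the start are shown for Ptgs2 and Alox5, both abundant in neutrophil-like cells below, and for Hpgd and Ltc4s, which share a macrophage cluster. Where the GENCODE start lies upstream of the RefSeq start the sequence ends at the GENCODE start, which shortens the Ltc4s stretch to 166 bases. The Ptgs2 window is chr1:150099781-150100030 on the plus strand, that of Alox5 chr6:116461179-116461428 on the minus strand, that of Hpgd chr8:56294302-56294551 on the plus strand and that of Ltc4s chr11:50238617-50238782 on the minus strand. Capitals mark matches on either strand to the motifs listed after the sequences.
Ptgs2: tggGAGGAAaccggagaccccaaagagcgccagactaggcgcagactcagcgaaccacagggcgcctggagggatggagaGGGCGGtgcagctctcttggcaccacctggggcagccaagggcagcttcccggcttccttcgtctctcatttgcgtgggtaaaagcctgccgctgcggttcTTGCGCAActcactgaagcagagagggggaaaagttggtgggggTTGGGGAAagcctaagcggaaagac
Alox5: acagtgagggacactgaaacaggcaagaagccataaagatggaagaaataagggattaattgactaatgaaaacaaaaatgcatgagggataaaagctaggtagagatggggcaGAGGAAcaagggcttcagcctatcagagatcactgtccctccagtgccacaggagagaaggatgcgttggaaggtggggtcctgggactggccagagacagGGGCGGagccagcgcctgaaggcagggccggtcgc
Hpgd: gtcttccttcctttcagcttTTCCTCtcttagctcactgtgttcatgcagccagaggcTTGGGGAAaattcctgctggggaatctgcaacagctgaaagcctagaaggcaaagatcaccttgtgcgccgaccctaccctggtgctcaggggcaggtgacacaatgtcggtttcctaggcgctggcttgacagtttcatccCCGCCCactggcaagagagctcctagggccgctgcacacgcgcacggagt
Ltc4s: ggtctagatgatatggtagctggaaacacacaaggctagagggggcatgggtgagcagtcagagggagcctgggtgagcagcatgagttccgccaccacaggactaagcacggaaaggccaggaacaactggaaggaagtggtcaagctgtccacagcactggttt

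Both strands of the 250 upstream bases were searched for the TATA box TATAAA, the CAAT box CCAAT, the PU.1 core GAGGAA, the C/EBP pattern TTNNGNAA, the AP-1 pattern TGANTCA, the E-box CACGTG and the GC box GGGCGG. The PU.1 core was found in 7 of the 8 windows, all but that of Ltc4s, and in 23.3% of all 32851 windows of the same length. C/EBP matches were found in the windows of Ptgs2, Ptges, Hpgds and Hpgd, against 36.8% of all windows, and Ptgs2 held 2 of them, 69 and 25 bases before the start. GC boxes were found in those of Ptgs2, Ptges, Alox5 and Hpgd, against 32.7% of all. None of the 8 windows held TATAAA, which 12.4% of all windows hold. These counts use the full RefSeq windows, also where bases lie after the GENCODE start. That holds for the whole Ptges window, for all but 72 bases of that of Hpgds and for the end of that of Ltc4s. All 4 matches of Ptges and all 3 of Hpgds lie in such bases, and Ltc4s has 0 matches. No match shown shares bases with another, and a match is a string of letters, not a measured binding site.

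Each enzyme had its own distribution over the cells, as drawn in the map of levels by cluster. Neutrophil-like cells carried Ptgs2, Ptgs1, Alox5 and Alox5ap. A macrophage-like cluster led by Lyve1, C1qa and Folr2, genes of resident heart macrophages, held most of Hpgd, Hpgds and Ltc4s. A cluster of 20 cells led by Saa3, Prg4 and Serpinb2 held nearly all of Alox15. These patterns were seen in both libraries.

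**Figure D1:**
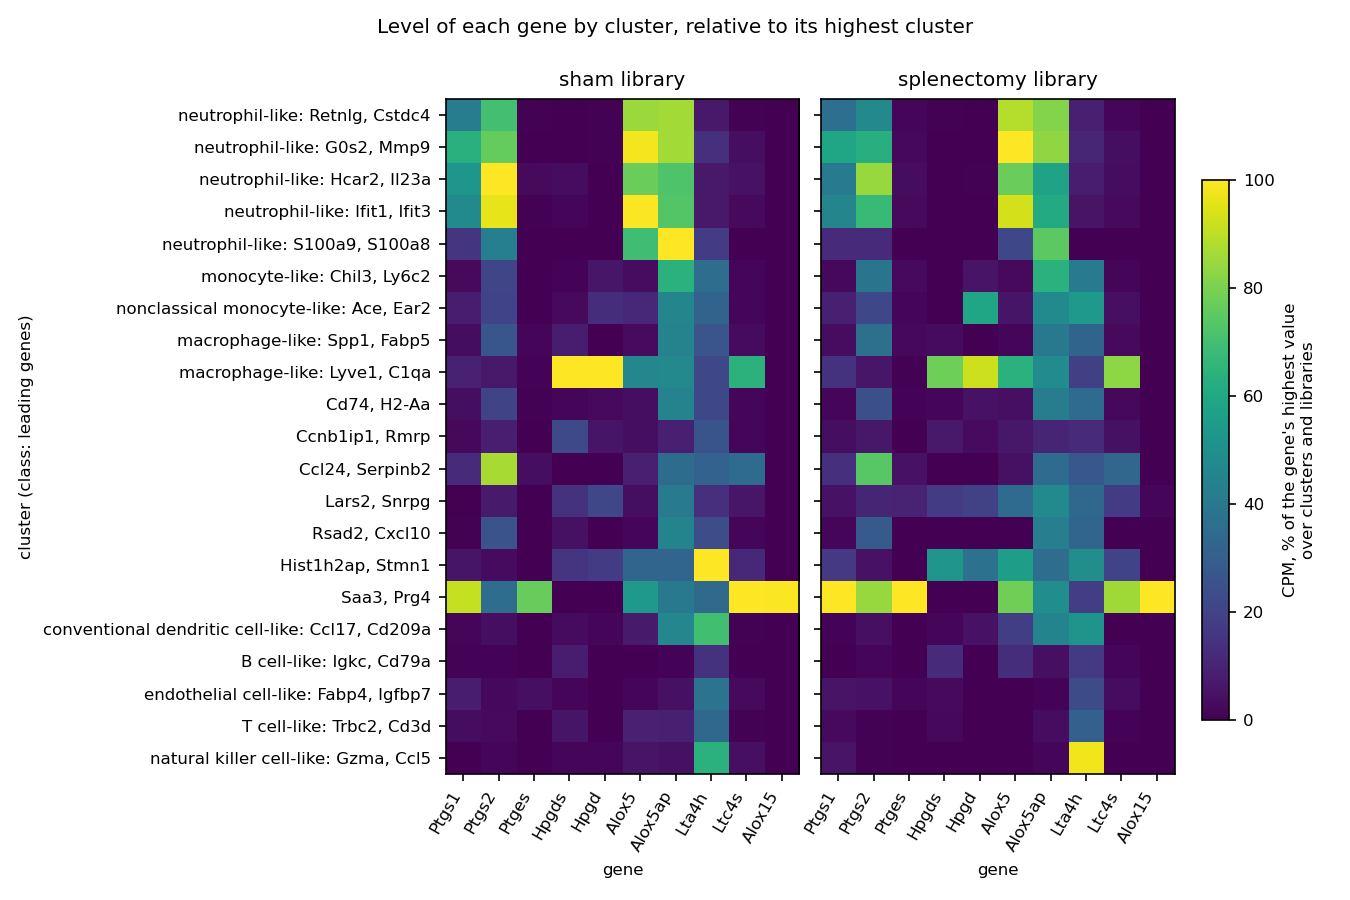
Level of each of the 10 genes (columns) in each cluster (rows, with class and leading genes) in the sham library (left) and the splenectomy library (right). Colour gives CPM as a percent of that gene's highest value over clusters and libraries, so colours compare clusters within a gene and not genes with each other. The cardiomyocyte-like cluster of 23 cells is left out, and the 20-cell Saa3 and Prg4 cluster reaches 100% for Alox15, Ptgs1, Ptges and Ltc4s.

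Ptgs2, the inducible cyclooxygenase (chr1:150100031-150108227, plus strand, mm10), was high in the 4 large neutrophil-like clusters. In the sham library it stood at 3128 CPM in the cluster led by Hcar2 and Il23a, 3009 CPM in that led by the interferon genes Ifit1 and Ifit3, 2386 CPM in that led by G0s2 and Mmp9, and 2189 CPM in that led by Retnlg. An unnamed cluster led by Ccl24, Serpinb2 and Il6 lay in the same range, with 2715 CPM in the sham and 2314 CPM in the splenectomy library, and the Saa3 and Prg4 cluster did so after splenectomy, with 1117 and 2647 CPM. Monocyte-like cells had 650 CPM and the Spp1, Fabp5 and Arg1 cluster of macrophage-like cells 838 CPM in the sham library. Small clusters lay between these and the large neutrophil clusters, with 1730 CPM in the 14 cardiomyocyte-like cells and 1344 CPM in the 61 neutrophil-like cells of low depth. The macrophage-like name of the Spp1 cluster was a near tie: its mean scaled marker level was 0.952 for macrophage and 0.936 for monocyte markers. The Lyve1 cluster had 211 and 193 CPM. B cell-like cells, which should hold little of it, had 31.4 and 46.5 CPM. At 2000 UMIs per cell, Ptgs2 was detected in 81.9% of the 2044 neutrophil-like cells deep enough in the sham library and 70.7% of 1475 in the splenectomy library (86.3% and 78.6% without thinning). The same depth gave 7.07% and 3% of B cell-like cells, whose median depths of 3489 and 3689 UMIs were close to the 3319 and 3745 of neutrophil-like cells.

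Between the libraries, Ptgs2 was lower in splenectomy neutrophils and higher in splenectomy monocytes. In neutrophil-like cells it was 2617 CPM in the sham and 1813 CPM with the spleen removed. This log2 ratio of -0.53 (interval -0.56 to -0.50) is short of 1.5-fold. The lower value recurred in each of the 4 large neutrophil clusters: 1467 CPM in the Retnlg cluster, 1975 in the G0s2 cluster, 2648 in the Hcar2 cluster and 2118 in the Ifit1 cluster of the splenectomy library. In the class as a whole, the median cell had 17.6 and 9.46 Ptgs2 UMIs per 10000, and cells without any made up 13.7% and 21.4%. These class values also hold a change in cluster mix: the Retnlg cluster had 583 sham and 851 splenectomy cells and the Ifit1 cluster 451 and 90. Over the alternatives, which include clusters weighted by their pooled share, the class log2 ratio of Ptgs2 lay between -0.55 and -0.41. In monocyte-like cells the level went the other way, from 650 CPM in the sham to 1214 CPM after splenectomy, for a log2 ratio of 0.90 (0.84 to 0.95). The Spp1 cluster showed 838 and 1157 CPM, a log2 ratio of 0.47 (0.43 to 0.50), short of 1.5-fold, and the Lyve1 cluster 211 and 193 CPM. The difference in direction between neutrophils and monocytes was not tested.

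**Figure D2:**
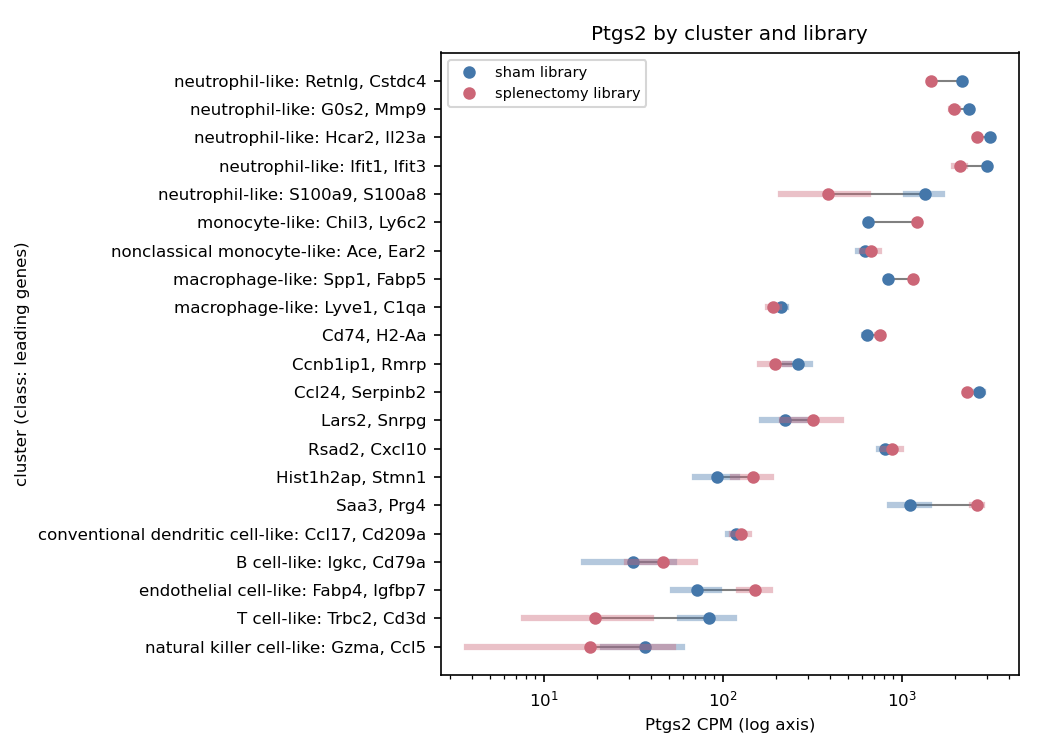
Ptgs2 level (CPM, log axis) in each cluster of the sham (blue) and splenectomy (red) libraries, with pale bars for the 95% Poisson interval, which covers counting error only. All 5 neutrophil-like clusters sit lower in the splenectomy library, while the monocyte-like cluster (650 and 1214 CPM) and the Spp1 cluster (838 and 1157 CPM) sit higher.

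Neutrophil transcripts also differed between the libraries in the monocyte-like cells: 10 neutrophil markers summed to 1245 CPM in the sham and 4669 CPM in the splenectomy library, against 112828 and 142361 CPM in neutrophil-like cells. In monocyte-like cells whose neutrophil marker UMIs were under 0.1% of their total (321 of 442 and 228 of 580 cells), Ptgs2 was 671 and 1328 CPM. Its log2 ratio there was 0.98 (0.91 to 1.06). The neutrophil gene S100a8 was at 212 and 246 CPM, but it is 1 of the 10 selecting markers, so its low level follows from the limit. The limit also kept a smaller part of the class in the splenectomy library. The part of neutrophil transcripts in the ratio of the whole class was not otherwise tested. With the removed doublets kept, the monocyte-like class held 1090 and 958 cells, and the call was lost, with a log2 ratio of 0.49.

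Ptgs1, the constitutive enzyme (chr2:36230426-36252272, plus strand), followed another order. Its highest level was in the Saa3 and Prg4 cluster, at 206 and 226 CPM, then in neutrophil-like cells, at 115 CPM in the sham and 92.4 CPM after splenectomy, for a log2 ratio of -0.32 (-0.47 to -0.17) that is short of 1.5-fold. Monocyte-like cells had 5.56 and 5.11 CPM and the Spp1 cluster 7.30 and 7.10 CPM. In the Lyve1 cluster it was higher after splenectomy, with 94 and 145 counts or 21.03 and 33.2 CPM, a log2 ratio of 0.66 (0.27 to 1.05). The 10 neutrophil markers in that cluster summed to 611 and 519 CPM, and to 1091 and 688 CPM in its cells with Ptgs1. Their part in the ratio was not tested. Of the sham library's Ptgs1 UMIs, 71.2% were in neutrophil-like cells, which made up 38.9% of its cells, and of the splenectomy library's 54.2%, from 33.1% of its cells.

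Ptges, the inducible prostaglandin E2 synthase (chr2:30889471-30929863, minus strand), was rare, with 59 UMIs in the sham and 133 in the splenectomy library. Over all cells this was 1.20 and 2.97 CPM, and Ptges and Alox15 were the 2 of 10 genes called higher there, against 4.29% of the 12843 genes with enough counts; 0 of 10 were called lower, against 4.45%. Its highest level was in the Saa3 and Prg4 cluster, 85.9 and 112 CPM, and 37 of the 133 splenectomy UMIs came from the 16 cells of that cluster. One of these cells held 18 of them. In monocyte-like cells it had 2 counts in the sham and 21 in the splenectomy library, the latter in 15 of 580 cells, a log2 ratio of 3.02 (0.99 to 6.16). With cells thinned to 4000 UMIs it was detected in 0 of 429 and 4 of 570 monocyte-like cells, where 0 of 429 allows up to 0.699% of cells with a UMI at this depth (3 counts of the total). The call was lost with classes set by per-cell markers (log2 ratio 0.58) and with thinned counts. The thinned ratio (0.0051) uses 3 counts in place of a sham count of 0, so it does not measure the difference. In these monocyte-like cells, the same that gave the Ptgs2 ratio, 10 macrophage markers summed to 3004 and 2778 CPM with none at 0, but did not move as one. C1qa was 136 and 30.3 CPM, C1qb 302 and 98.9, C1qc 113 and 35.7 and Ms4a7 59.6 and 17.8 CPM, all lower after splenectomy, while Apoe was 1465 and 1864 CPM. Their part in the Ptgs2 and Ptges ratios was not tested.

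Hpgd and Hpgds marked the Lyve1 cluster, which comprised 380 sham and 336 splenectomy cells. Hpgd, which inactivates prostaglandins (chr8:56294585-56321043, plus strand), was 172 CPM there in the sham and 158 CPM in the splenectomy library, and that cluster, with 6.51% and 6.99% of the cells, held 83.2% and 75.2% of its UMIs. Hpgds, the prostaglandin D2 synthase of blood cells (chr6:65117293-65144908, minus strand), was 124 and 96.7 CPM, with 69.2% and 79.2% of its UMIs there. Monocyte-like cells had 10.2 and 9.29 CPM of Hpgd. The Spp1 cluster had 0.37 and 0.60 CPM of Hpgd and 9.63 and 3.51 CPM of Hpgds. At 4000 UMIs per cell, Hpgd was found in 47.7% and 42.5% of Lyve1 cluster cells and Hpgds in 33.1% and 29.1%. Within the cluster, Hpgds was found in 31.7% of sham cells with Hpgd and 34.4% of those without, and in 35.4% and 24.4% in the splenectomy library. Ltc4s was found in 42.7% of sham cells with Hpgd and 18.3% of those without, and in 45.4% and 28.4% in the splenectomy library. These differences were not tested.

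Nonclassical monocyte-like cells, the patrolling monocytes led by Ace, Ear2 and Adgre4, were the named class with the next highest Hpgd. It had 20 counts in 126 sham cells and 55 in 73 splenectomy cells, or 22.5 and 101 CPM, a log2 ratio of 2.17 (1.41 to 2.99). These counts came from 10 and 16 cells, of which the highest had 7 and 13. Thinned to 4000 UMIs, Hpgd was detected in 4.55% (exact binomial interval 1.49 to 10.3) of 110 sham and 19.7% (10.9 to 31.3) of 66 splenectomy cells. The summed level of 10 macrophage markers was 4240 and 5322 CPM in all cells of the class and 3635 and 6947 CPM in those with Hpgd, where the defining macrophage gene C1qa was at 0 and 18.1 CPM. Of the 10 markers, 6 in the sham and 1 in the splenectomy library were at 0 in the cells with Hpgd. Their part in the ratio was not tested. Ratios in all 9 alternatives that gave this class at least 50 cells per library stayed between 1.19 and 2.83. Of the 4 of the 10 genes with enough counts in these cells, 2 were called higher, Hpgd and Lta4h (31.4 and 53.3 CPM, interval of the log2 ratio -0.040 to 1.56), against 5.36% of 4647 genes, and 0 lower, against 12%.

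Hpgds was lower after splenectomy in the Spp1 cluster, with 157 sham and 47 splenectomy counts, a log2 ratio of -1.46 (-1.96 to -0.98). The UMIs came from 93 of 938 sham and 36 of 792 splenectomy cells. Alox5 was lower there too, with 60 and 23 counts, a log2 ratio of -1.10 (-1.86 to -0.38). These were the 2 of 8 genes called lower in that cluster, against 6.59% of all 10017 genes, and 0 of 8 were called higher, against 2.68%. The summed level of 10 macrophage markers in this cluster was 5812 CPM in the sham and 5419 CPM in the splenectomy library, and cells with Hpgds had more of them (8349 and 12484 CPM) than cells without (5485 and 5007 CPM). Their part in the lower Hpgds was not tested. Within the Lyve1 cluster Hpgds was 556 and 423 counts, a log2 ratio of -0.36 (-0.55 to -0.18), under 1.5-fold.

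**Figure D3:**
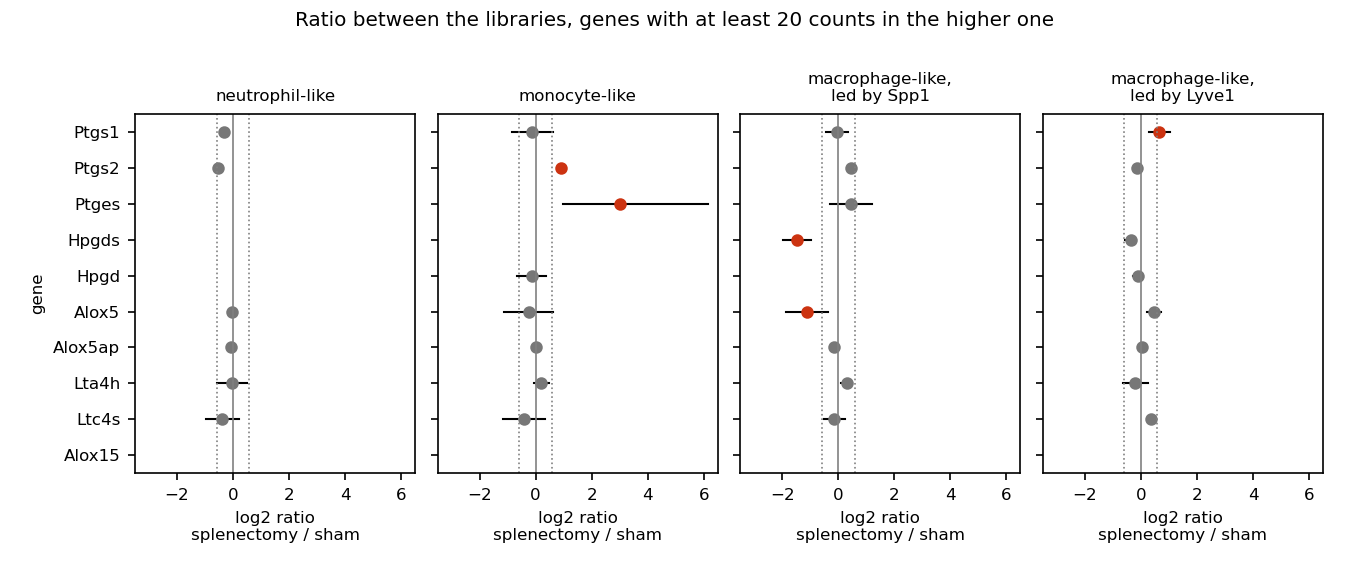
Log2 ratio of splenectomy over sham for each gene whose larger count is at least 20, in neutrophil-like cells, monocyte-like cells and the 2 macrophage-like clusters. Lines are 95% Poisson intervals (counting error only), dotted lines mark 1.5-fold, and red points are past it. In neutrophil-like cells 0 of 6 genes are past it, Ptgs2 and Ptges are in monocyte-like cells, Hpgds and Alox5 are lower in the Spp1 cluster, and Ptgs1 is higher in the Lyve1 cluster.

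Alox5 (chr6:116410077-116461178, minus strand) and its partner Alox5ap (chr5:149264767-149288153, plus strand) did not share a distribution. Alox5ap was broad, from 1540 CPM in the G0s2 neutrophil cluster and 1139 CPM in monocyte-like cells to 797 CPM in the Spp1 and 838 CPM in the Lyve1 cluster of the sham library, and 829 CPM in conventional dendritic cell-like cells. Alox5 was high in only some of these cells. It was 114 and 112 CPM in neutrophil-like cells, 58.8 and 81.4 CPM in the Lyve1 cluster and 68.7 and 99.6 CPM in the Saa3 and Prg4 cluster. In monocyte-like cells it was only 3.99 and 3.36 CPM, and in the Spp1 cluster 3.68 and 1.72 CPM. Monocyte-like cells thus had Alox5ap in 97.7% and 97.02% of cells at 4000 UMIs and Alox5 in 1.63% and 1.58%. In B cell-like cells at the same depth Alox5 was found in 0 of 31 sham and 1 of 38 splenectomy cells.

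In neutrophil-like cells neither gene differed by 1.5-fold between the libraries: the log2 ratio was -0.033 (-0.18 to 0.11) for Alox5 and -0.091 (-0.13 to -0.050) for Alox5ap, the latter from 1439 and 1351 CPM. Conventional dendritic cell-like cells had 28 and 64 counts of Alox5, or 9.32 and 23.4 CPM, a log2 ratio of 1.33 (0.67 to 2.03), in 13 of 232 and 27 of 208 cells. This cluster also held cells with markers of plasmacytoid dendritic cells: 8 such markers summed to 774 and 825 CPM in all its cells and to 1677 and 2120 CPM in those with Alox5. Most of that sum was Bst2, at 591 and 536 CPM in all cells. Siglech was 11.99 and 34.4 CPM there, Ccr9 9.99 and 32.95, Cd300c 3.66 and 16.1, Tcf4 117 and 164 and Klk1 0 and 2.56 CPM. Cox6a2, at 10.99 and 9.15 CPM, and Runx2, at 29.97 and 29.7 CPM, were not higher after splenectomy. In the cells with Alox5, Ccr9 was 73.6 and 33.4 CPM, Cox6a2 131 and 0 and Runx2 63.1 and 51.6 CPM. Klk1 was at 0 in both libraries there, and Bst2, Siglech, Tcf4 and Cd300c were higher after splenectomy. With at least 500 genes required per cell, 19 and 37 plasmacytoid dendritic cell-like cells formed a class of their own, and the ratio for the conventional class turned to -0.086. With Leiden resolution 2.0, which set apart 12 and 27 such cells, it was 0.96. The part of plasmacytoid cells in the ratio was not otherwise tested. Hpgd was the other gene called higher there, with 7 and 23 counts, so 2 of 5 were called higher, against 5.79% of 7459 genes, and 0 lower, against 5.54%.

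Lta4h, the leukotriene B4 enzyme (chr10:93453411-93484875, plus strand), was low in neutrophil-like cells, 8.55 and 8.38 CPM, and higher in most other groups. It was 68.9 and 51.3 CPM in conventional dendritic cell-like cells, 35.4 and 40.6 CPM in monocyte-like cells and 26.1 and 32.1 CPM in the Spp1 cluster. The dividing cells led by Hist1h2ap and Stmn1 had 99.0 and 49.0 CPM and the natural killer cell-like cells 63.2 and 96.8 CPM, from 54 and 19 and from 69 and 31 cells. The 4 large neutrophil-like clusters were the highest for Alox5 in the sham library and the lowest for Lta4h, while the dividing cells held both, with Alox5 at 41.5 and 71.3 CPM.

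Ltc4s, the leukotriene C4 synthase, was above 100 CPM in both libraries in 2 of the clusters with at least 50 cells per library. It was 199 CPM in the Lyve1 cluster of the sham and 257 CPM in that of the other library, for a log2 ratio of 0.37 (0.24 to 0.50), and 109 and 103 CPM in the Ccl24 and Il6 cluster. The Saa3 and Prg4 cluster had 309 and 266 CPM. Monocyte-like cells had 5.73 and 4.31 CPM and neutrophil-like cells 8.43 and 6.48 CPM. Ltc4s spans chr11:50236461-50238616 on the minus strand (mm10), where an antisense gene, Gm26542, overlaps its exons, and the sources used here do not say whether the deposited counting used the strand. Gm26542 had 61 UMIs in all barcodes, and Gm19719, which overlaps Alox5ap, had 1. Without the strand, reads of such partners cannot be told apart.

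Inside the Lyve1 cluster Ltc4s went with Lyve1 itself. Cells with a Lyve1 UMI (160 sham and 189 splenectomy cells) had 357 CPM of Ltc4s in the sham and 366 CPM in the splenectomy library, and cells without one (220 and 147) had 31.8 and 29.5 CPM. Their intervals do not overlap in either library: 333 to 382 against 24.7 to 40.2 CPM in the sham and 344 to 388 against 21.3 to 39.9 CPM in the splenectomy library. These intervals cover counting error only and not the spread between cells. Alox5 was 82.7 CPM with and 33.6 CPM without Lyve1 in the sham library, and 89.1 and 65.4 CPM in the splenectomy library. Hpgds did not split this way, with 125 and 124 CPM in the sham and 88.4 and 114 CPM in the splenectomy library, and Hpgd was 197 and 145, then 167 and 140 CPM. The cells with Lyve1 were deeper, with medians of 12450 against 8814 UMIs in the sham and 13785 against 7993 in the splenectomy library. Depth's part in the split was not tested.

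**Figure D4:**
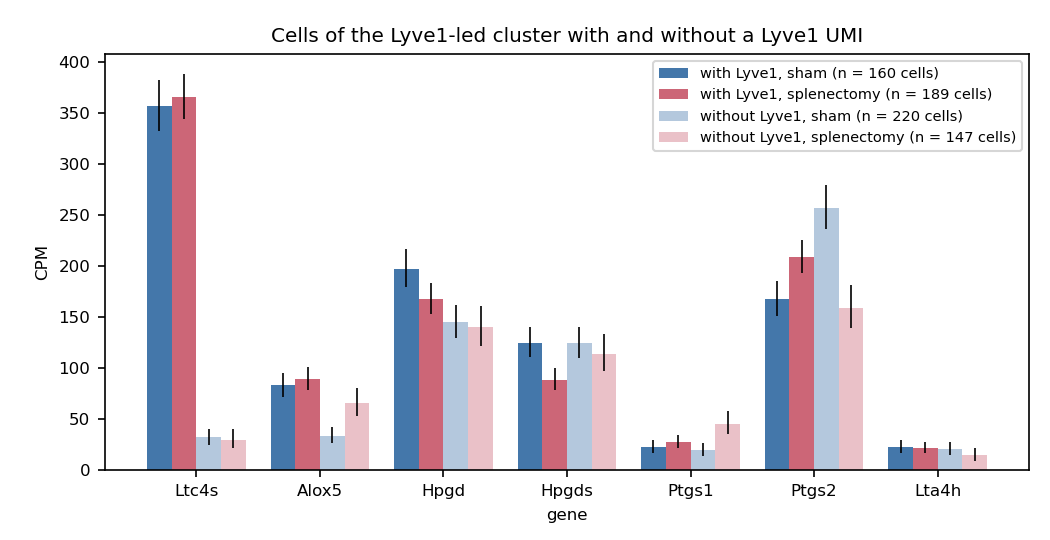
CPM of 7 genes in cells of the Lyve1 cluster with (full colour) and without (pale) a Lyve1 UMI, in the sham (blue) and splenectomy (red) libraries. Bars are summed counts and lines 95% Poisson intervals (counting error only). Ltc4s stands at 357 and 366 CPM with Lyve1 and at 31.8 and 29.5 CPM without, while Hpgds lies between 88.4 and 125 CPM in all 4 groups.

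Ptgs1 and Ptgs2 differed more between the libraries in cells without Lyve1 than in cells with it. Ptgs1 was 19.3 and 45.0 CPM without Lyve1, against 22.6 and 27.4 CPM with it. Ptgs2 was 257 CPM in the sham and 159 CPM in the splenectomy library without Lyve1, and 168 and 209 CPM with it, so that it went in opposite directions. Whether these differences depend on Lyve1 was not tested. Ptgs1 was the 1 of 8 genes called higher in this cluster, against 5.53% of 9038 genes, and 0 of 8 were called lower, against 4.79%.

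Alox15, 12/15-lipoxygenase (chr11:70344152-70352031, minus strand), was nearly undetected outside 1 cluster. Of 227 UMIs in the kept cells of both libraries, 222 were in the 20 cells of the Saa3 and Prg4 cluster, 33 of 35 in the sham and 189 of 192 in the splenectomy library. It was detected in 3 of 4 and 14 of 16 cells there, with 0 to 30 UMIs per sham cell and 0 to 55 per splenectomy cell, and no cell elsewhere had more than 1. None of the 10 genes was used for clustering, so Alox15 did not define this cluster. Prg4 (lubricant proteoglycan 4) was detected in 18 of the 20 cells, and Lyve1, Hpgd and Hpgds in 0 of 20. The level within the cluster was 567 CPM in the sham and 571 CPM in the splenectomy library. The sham level rests on 1 cell, which held 30 of the 33 UMIs, so the levels per cell cannot be compared. The libraries differed in the number of cells in this cluster, 4 of 5838 or 0.0685% (exact binomial interval 0.0187 to 0.175%) and 16 of 4805 or 0.333% (0.190 to 0.540%). A further 3 sham barcodes with 26 UMIs of Alox15, of which 1 had 23, were among the removed doublets, so that all deposited barcodes held 61 sham and 192 splenectomy UMIs. Alox15, Ptgs1, Ptges and Ltc4s each had their highest level among the drawn clusters in this one. No barcode had UMIs of at least 3 eosinophil markers (0 in each library), and 2 splenectomy barcodes had those of mast cells, with 2 UMIs of Hpgds and 0 of Ltc4s.

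**Figure D5:**
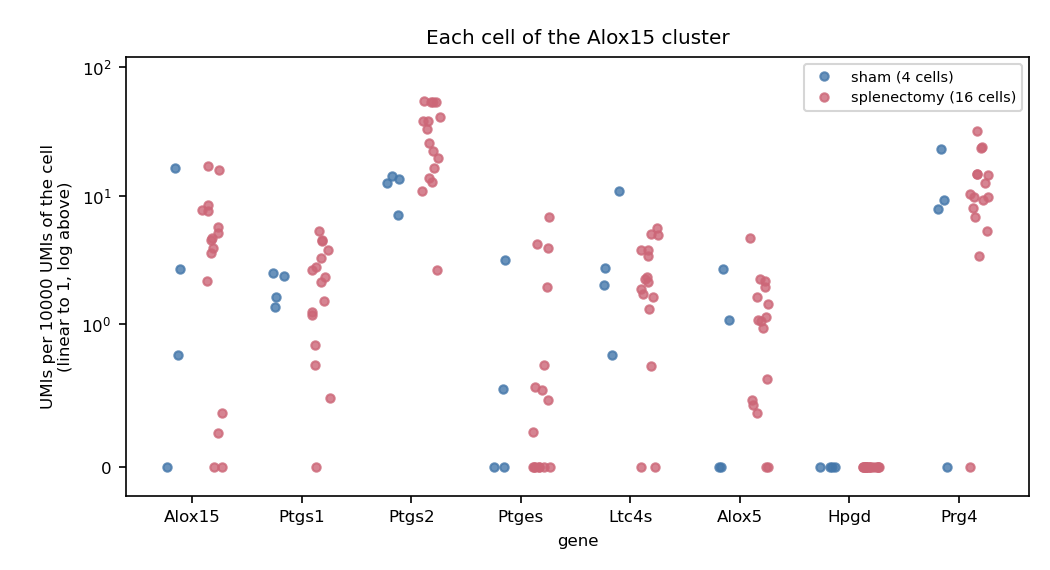
UMIs per 10000 UMIs of the cell (linear to 1, log above) for 8 genes in each of the 4 sham (blue) and 16 splenectomy (red) cells of the Saa3 and Prg4 cluster. Alox15 is above 0 in 3 of 4 and 14 of 16 cells, and Hpgd is 0 in all 20.

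Lymphocyte-like and endothelial-like cells carried little of these genes. In T cell-like cells 2 of the 10 genes had enough counts, Ptgs2 with 83.4 and 19.4 CPM and Alox5ap with 155 and 58.3 CPM. Both were called lower, against 18.8% of 2793 genes, and 0 of 2 higher, against 8.09%. B cell-like cells had 14.5 and 71.8 CPM of Alox5ap, the 1 of 2 genes with enough counts called higher, against 11.2% of 3139 genes. There 0 of 2 were called lower, against 6.4%. Neutrophil markers moved the same way in both: 2069 and 441 CPM in T cell-like and 493 and 2185 CPM in B cell-like cells. Endothelial cell-like cells had 72.1 and 151 CPM of Ptgs2, the 1 of 3 genes with enough counts called higher, against 9.19% of 5354 genes. The 2 of 3 called lower were Alox5ap (81.1 and 16.5 CPM) and Lta4h (37.6 and 22.5 CPM, interval of the log2 ratio -1.77 to 0.24), against 13.3%. Neutrophil markers in these cells were at 1563 and 385 CPM. The part of these transcripts in the ratios was not tested, and each of these calls rests on 101 or fewer counts in the higher library.

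In the 3 large classes few of the 10 genes passed 1.5-fold. In neutrophil-like cells 6 had enough counts, of which 0 were called higher, against 5.09% of 7898 genes, and 0 lower, against 9.89%, with a median log2 ratio of -0.21 beside -0.082 for all genes. In monocyte-like cells 8 had enough counts, and 2 were called higher, Ptgs2 and Ptges, against 5.22% of 8796 genes, and 0 lower, against 5.91%, with a median of -0.059 beside -0.0067. In macrophage-like cells 9 had enough counts, and 0 were called higher, against 3.12% of 10733 genes, and 0 lower, against 4.38%, with a median of 0.34 beside -0.035. In the class as a whole Ltc4s was 49.4 and 69.0 CPM, Alox5 15.6 and 21.3 CPM, Ptgs1 10.3 and 13.5 CPM (log2 ratio 0.40, 0.13 to 0.67) and Hpgds 34.3 and 26.5 CPM. This class joins the Spp1 and Lyve1 clusters, which differ in these genes as described, and other clustering settings divide them differently.

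Other genes of the pathway were taken from a list of 64 gene symbols of phospholipases, synthases, transporters and receptors. All of these symbols but Fam213b, or 63, were in the matrices. In neutrophil-like cells 28 had enough counts, 3 called higher and 3 lower, against 5.09% and 9.89% of all genes. Ltb4r1, the leukotriene B4 receptor, was 152 CPM in the sham and 286 CPM after splenectomy, for a log2 ratio of 0.92 (0.81 to 1.02). Ggt1, which cleaves leukotriene C4, had a log2 ratio of 1.37 (0.82 to 1.94) and Abcc1, which exports it, 0.69 (0.36 to 1.02). Cysltr1, a cysteinyl leukotriene receptor, was 12.8 and 7.59 CPM, and Ptger4, a prostaglandin E2 receptor, 6.20 and 4.11 CPM, with an interval of the log2 ratio that reaches 0.12. The third gene called lower was Prxl2b, a prostaglandin F synthase, with 21 and 8 counts and an interval of the log2 ratio from -2.43 to 0.19. In monocyte-like cells 31 had enough counts, 4 called higher and 1 lower, against 5.22% and 5.91% of all genes. The 4 were the phospholipase Pla2g12a (1.35), the prostaglandin E2 receptor Ptger2 (0.84), Abcc1 (0.72) and the formyl peptide receptor Fpr2 (0.67), as log2 ratios. The 1 called lower was the nuclear receptor Pparg, with 26 and 14 counts. Prxl2b and Pparg fall outside the rule for named genes and are named after their values were seen. In macrophage-like cells 36 had enough counts, with 3 called higher, Mgst1 (0.79), Fpr2 (0.72) and Ptger2 (0.62), and 0 lower, against 3.12% and 4.38% of all genes. Median log2 ratios of the list were 0.033, 0.029 and 0.061 in the 3 classes, beside -0.082, -0.0067 and -0.035 for all genes.

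The genes closest in pattern were ranked by Pearson correlation of log2 CPM over 38 units, each a cluster in 1 library with at least 30 cells. These units share libraries and depth, so the values are descriptions. Ltc4s was closest to Folr2 (0.88), Cbr2 (0.86) and Etv1 (0.84), Hpgds to Fcrls (0.86), Fxyd2 (0.82) and Npl (0.80), and Hpgd to Lilra5 (0.89), Cx3cr1 (0.81) and Cryl1 (0.78). Alox5 was closest to Cd33 (0.89), Cass4 (0.88) and Siglece (0.83), and Alox5ap to Cd14 (0.94), Lrrc25 (0.93) and Milr1 (0.92). For Ptgs2 they were Rab32 (0.94), Slc7a11 (0.93) and Cxcl2 (0.93), for Ptgs1 Cmtm6 (0.89), Ddx3x (0.88) and Hnmt (0.88), and for Lta4h Anxa6 (0.85), Nt5c (0.85) and H2afy (0.85). Among the enzymes themselves the highest value was 0.79, between Ptgs1 and Alox5. The cluster that held Alox15 has under 30 cells and is not among the units, so its closest genes, Orc5 (0.63), Iba57 (0.62) and Tab1 (0.62), rest on its few other UMIs, and Ptges had too few UMIs to be ranked.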

How the data were processed

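The deposited matrices hold counts of UMIs per gene and barcode, made with Cell Ranger 5.0.0 on build mm10, per the submitters' processing notes. The sham library held 6210 barcodes and 53512625 UMIs and the splenectomy library 5087 and 48024013. The label of the sham library names only the heart injury, and its group was taken from the series' design.

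Barcodes with under 200 genes (32 and 26), over 20% mitochondrial UMIs (58 and 72) or the highest Scrublet scores (302 and 200, at 8 per 1000 cells for each 1000 cells) were left out. The 2000 variable genes used for clustering left out the 10 genes and the pathway list, and 30 principal components, 15 neighbours and Leiden resolution 1.0 (scanpy 1.11.5, leidenalg 0.10.2) gave 22 clusters. A class needed at least 3 of its markers in 25% of the cluster's cells at 1.5-fold over the rest. Ratios of summed counts have exact 95% Poisson intervals, which cover counting error only. Against a count of 0, 3 counts were used. To compare detection, cells were thinned to a fixed number of UMIs.

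The 10 genes, the marker lists and the pathway list were chosen with earlier results of these data known. Levels and ratios of all 10 were computed in each class of at least 50 cells per library. The text gives part of them, and in the smaller classes mostly the genes called higher or lower. From the pathway list the 4 highest and 4 lowest ratios past 1.5-fold with at least 50 counts were named, and for likeness the 3 nearest genes by correlation of log2(CPM + 5). Alternatives changed the clustering, cell filters, doublets, scaling, depth, fold and count minimum. The ratio calculation was tested on simulated data. Gene positions are from GENCODE vM21.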

Additional observations from a re-analysis of the deposited data

Results flagged for a closer look

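2 pairs of cell classes went in opposite directions between the libraries. The log2 ratio of splenectomy over sham was -0.53 for Ptgs2 in neutrophil-like cells and 0.90 in monocyte-like cells. Over the alternatives it lay between -0.55 and -0.41 in neutrophil-like cells and between 0.49 and 1.30 in monocyte-like cells. For Ptgs1 it was -0.32 in neutrophil-like cells and 0.40 in macrophage-like cells, with ranges of -0.37 to -0.20 and 0.30 to 0.99. Of the 2 macrophage-like clusters only that led by Lyve1 was higher, with 21.03 and 33.2 CPM, and that led by Spp1 had 7.30 and 7.10 CPM. With 1 library per group neither difference was tested.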

How the results depend on the processing

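No paired analysis was possible because there was 1 library per group. Depth and the single library limit every ratio: the intervals hold no variation between animals. In neutrophil-like cells the count of genes past 1.5-fold went from 0 to 1 higher with no count minimum, and from 0 to 1 lower with no count minimum or thinned cells. In monocyte-like cells the count of higher genes went from 2 to 1 with per-cell marker classes, doublets kept, thinned cells, a 2-fold limit or at least 100 counts. The count of lower genes there went from 0 to 1 with per-cell marker classes, Leiden resolution 0.5 or 2.0, libraries clustered apart, the pathway genes among the variable genes or no count minimum, and to 2 with doublets kept, at least 500 genes per cell or at most 10% mitochondrial UMIs. In macrophage-like cells the count of higher genes went from 0 to 5 with per-cell marker classes, to 3 with Leiden resolution 2.0 or at most 10% mitochondrial UMIs, and to 1 with Leiden resolution 0.5, libraries clustered apart, the pathway genes among the variable genes, at least 500 genes per cell, thinned cells or the Lyve1 cluster alone. The count of lower genes went to 1 with Leiden resolution 2.0 and to 2 with the Spp1 cluster alone. The single-cluster, low-neutrophil-marker and all-barcode alternatives were chosen after seeing the data.

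Called ratios reversed in the smaller classes. With per-cell marker classes the log2 ratio was -0.52 for Alox5ap in B cell-like, 0.047 for Alox5ap in T cell-like and -0.52 for Ptgs2 in endothelial cell-like cells. With doublets kept it was -0.29 for Alox5ap in B cell-like, 0.34 for Ptgs2 in T cell-like and 0.13 for Lta4h in endothelial cell-like cells. A minimum of 500 genes gave -0.086 for Alox5 in conventional dendritic cell-like cells. In endothelial cell-like cells Ptgs2 was -0.15 with at most 10% mitochondrial UMIs and Alox5ap and Lta4h were 0.040 with thinned cells. The causes were not tested. Of the log2 ratios under alternatives, 343 stayed within their interval. Of 457 in all, 66 changed sign, 10 of them for called ratios. Among the others were Hpgd in monocyte-like cells (8 of 12), Ptges (6 of 12) and Ptgs2 (4 of 12) in macrophage-like cells and Ptgs2 in B cell-like cells (4 of 12). With median-of-ratios scaling, the calls over all genes in neutrophil-like cells went from 402 higher and 781 lower to 497 and 595.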
